A study of Gallus gallus with 32 samples.

Results

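The comparison described here set livers of Arbor Acres broilers, chickens bred for meat, given 9 g/kg of added arginine against livers of the same line given 1.8 g/kg, the lowest of the 3 added doses in the series. Messenger RNA was sequenced in 8 libraries at each dose, which are 16 of the 32 libraries of the series; the others received 0 or 18 g/kg. The series' design text counts more liver samples than these 32 libraries, and the rest were not analysed here. Both groups carry added arginine, so neither stands for an unsupplemented bird, and the labels give the animals no age or sex. The genes are the 11299 of 25619 in the table whose mean over these 16 libraries reached 1 TPM. TPM is a gene's share of a library's RNA after division by transcript length. At the edge of this rule, NAF1 with a mean of 1.00 TPM was kept and GDAP1 with 0.998 TPM was not.

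Arginine is an essential amino acid for chickens, because the avian liver lacks a working urea cycle and cannot make enough of it. Birds discard surplus nitrogen as uric acid, which the liver builds by assembling the purine ring from glutamine, glycine, aspartate and one-carbon units and then oxidising it. The chicken liver is also the main site of fatty acid synthesis, of lipoprotein export and of glucose production between meals. The series' title names lipid metabolism as its subject.

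Values below are TPM, and a difference is 9 minus 1.8 g/kg on the log2(TPM + 1) scale with its standard error, which understates the change of genes with low values. The labels do not tell whether the 8 libraries at each dose are 8 different birds, and the p-values therefore reflect only how these libraries scatter. The table gives no counts, so sequencing depth is unknown. Albumin (ALB), the main plasma protein made by hepatocytes, ran from 62349 to 131355 TPM at 9 g/kg and from 62087 to 108256 TPM at 1.8 g/kg, and the hepatocyte markers APOA1 and TTR were at least 6934 and 3521 TPM in each of the 16 libraries. Each pair of the 16 libraries correlated at 0.907 to 0.965 over the tested genes. Single libraries still stood out for some genes and lists, as given below. Mitochondrially encoded transcripts took 17.0 to 24.6% of TPM at 9 g/kg and 19.9 to 22.2% at 1.8 g/kg. Their means of 21.3 ± 2.26% at 9 g/kg and 21.04 ± 0.864% at 1.8 g/kg (SD, n = 8 each) differed by 0.219 percentage points (2-sided exact permutation test, p = 0.804). HINTW, a transcript of the W chromosome that only hens carry, was above 0 in 4 of 8 libraries at 9 g/kg and in 3 of 8 at 1.8 g/kg. The libraries are bulk tissue, in which fewer cells of a type and less RNA per cell cannot be told apart.

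No gene passed the test. With limma and Benjamini-Hochberg adjustment over 11299 genes, 0 had an adjusted p below 0.05 (0% of those tested), and the lowest adjusted p was 0.927. Every gene named below therefore has an adjusted p of at least 0.927. At an unadjusted p below 0.05 there were 354 genes, 3.13% of those tested, where chance alone gives 565 on average. Of these, 124 genes were higher at 9 g/kg (1.1% of those tested) and 230 were lower (2.04%), so 35% were higher; after median-ratio rescaling of the libraries 198 were higher and 216 lower, and 47.8% were higher. Over all tested genes 6530 of 11299 had lower values at 9 g/kg and 42.2% had higher ones (49.7% after rescaling). This is the background for the counts of list members below, and it depended on single libraries. With each library left out, the share higher ran from 32.4% (without 1.8 g/kg replicate 7) to 54.3% (without 1.8 g/kg replicate 4). It was 53.2% without 9 g/kg replicate 8. The median over all genes ran from -0.07 to 0.02 in these fits. All 8 libraries at 9 g/kg lay below the 1.8 g/kg mean in 409 genes and above it in 37, so a count of 8 of 8 is given below as a description; a mean raised by 1 high library makes it easier to reach. The median gene differed by -0.03, with a median standard error of 0.17 and a median 95% interval that reached 0.35 to either side.

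**Figure D1:**
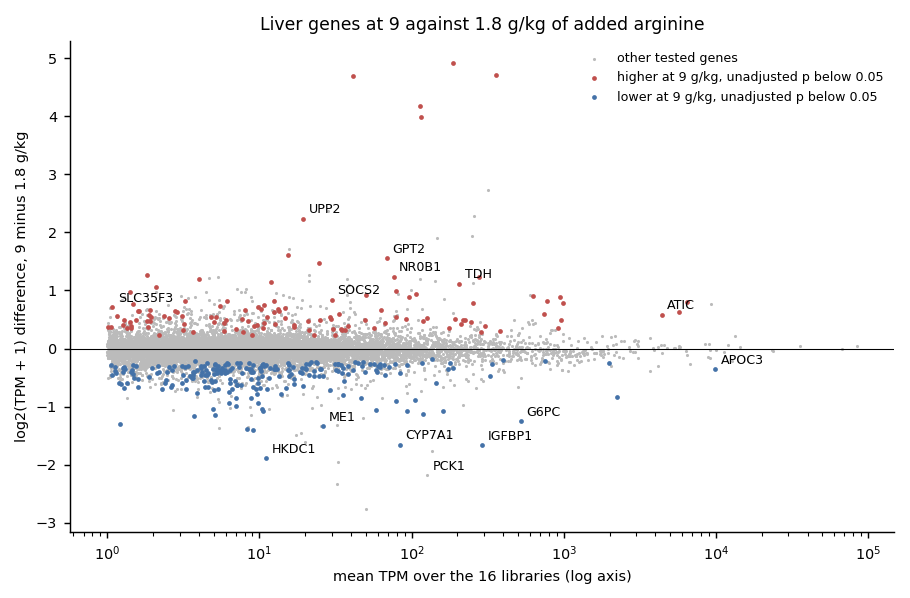
Mean TPM over the 16 libraries (log axis) against the difference at 9 minus 1.8 g/kg on the log2(TPM + 1) scale, 1 point per tested gene; coloured points have an unadjusted p below 0.05 and 14 genes are labelled. No gene passed the adjusted test, and the 5 unlabelled points near 4 to 5 are ribosomal RNA loci of chromosome 16.

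The gene with the smallest unadjusted p was SLC35F3, a member of solute carrier family 35. It stood at 1.03, 1.51 and 2.42 TPM (lowest, median, highest) at 9 g/kg, against 0.13, 0.61 and 0.97 TPM at 1.8 g/kg. This was the 1 gene of 11299 (0.00885%) whose libraries did not overlap between the doses, and its level was low throughout. How many such genes chance alone gives was not computed. Its means were 1.58 ± 0.467 TPM at 9 g/kg and 0.583 ± 0.303 TPM at 1.8 g/kg, a difference of 0.71 ± 0.15 (limma, adjusted p = 0.927). With a 1.8 g/kg mean below 1 TPM, SLC35F3 passed the filter only through its 9 g/kg libraries. So did SLC25A15 and POU2AF1, described below, while STAP1 and HKDC1 passed only through those at 1.8 g/kg. UPP2, a uridine phosphorylase that splits uridine into uracil and ribose phosphate, had the largest difference among the named genes at the higher end. It stood at 2.38, 29.4 and 76 TPM (lowest, median, highest) at 9 g/kg, against 0.87, 5.51 and 10.3 TPM at 1.8 g/kg. Of the 8 libraries at 9 g/kg, 6 exceeded every library at 1.8 g/kg, and the other 2 lay within their range. The difference was 2.23 ± 0.60 (95% interval 0.97 to 3.50), and it ran from 1.99 to 2.63 when each library was left out in turn.

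Several other genes at the higher end break down amino acids or metabolise small molecules. UROC1, urocanate hydratase of histidine breakdown, averaged 104 ± 33.6 TPM at 9 g/kg and 55.5 ± 30.6 TPM at 1.8 g/kg (0.99 ± 0.28, 8 of 8 libraries above the 1.8 g/kg mean). TDH, the threonine dehydrogenase, averaged 278 ± 136 TPM at 9 g/kg and 133 ± 75.5 TPM at 1.8 g/kg (1.12 ± 0.35, 8 of 8). ADH6, an alcohol dehydrogenase, averaged 886 ± 166 TPM at 9 g/kg and 592 ± 164 TPM at 1.8 g/kg (0.60 ± 0.16, 8 of 8). These 3 enzymes had every library at 9 g/kg above the mean at 1.8 g/kg, while their ranges overlapped. CYP3A4, a cytochrome P450, averaged 13.6 TPM at 9 g/kg and 7.93 TPM at 1.8 g/kg (0.76 ± 0.24). Its close relative CYP3A5 averaged 1252 TPM at 9 g/kg and 627 TPM at 1.8 g/kg (0.88 ± 0.30), and reads of the pair may be split uncertainly. The rest of the named higher genes were the chemokine scavenger ACKR4 (0.81 ± 0.19), the ETS-family repressor ETV3 (0.64 ± 0.17), the activin subunit INHBA (0.72 ± 0.20), the factor XIII subunit F13B (0.35 ± 0.11), and GSL (0.74 ± 0.19), C21orf62 (0.51 ± 0.16) and SLC2A4RG (0.49 ± 0.16). INHBA stood at 8.77, 12 and 16.2 TPM (lowest, median, highest) at 9 g/kg, against 4.16, 6.58 and 11.2 TPM at 1.8 g/kg. Among the 15 higher genes, 2 carried only locus identifiers.

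At the lower end the leading genes were mostly of modest level, and 4 of the 15 carried only locus identifiers. G6PC, glucose-6-phosphatase, which releases free glucose from the liver, was the most abundant of the named ones and is described with glucose metabolism. KLB, beta-klotho, the co-receptor for the hormones FGF19 and FGF21, stood at 10.4, 12.4 and 19.2 TPM (lowest, median, highest) at 9 g/kg, against 15.1, 19.6 and 30.0 TPM at 1.8 g/kg (-0.52 ± 0.16). All 8 libraries at 9 g/kg lay below the 1.8 g/kg mean, as in 409 genes, and 5 lay below its lowest library. ABCB1LA, an ABC transporter related to the multidrug exporter, averaged 32.6 ± 12.2 TPM at 9 g/kg and 59.8 ± 22.8 TPM at 1.8 g/kg (-0.86 ± 0.24, 8 of 8 below the mean). TSPAN15L, a tetraspanin, averaged 5.1 ± 0.747 TPM at 9 g/kg and 7.11 ± 0.987 TPM at 1.8 g/kg (-0.41 ± 0.11), and 6 of 8 libraries were below the lowest at 1.8 g/kg. The other named genes were the histone chaperone NPM2 (-0.62 ± 0.17), TMEM243 (-0.69 ± 0.20), CCDC134 (-0.48 ± 0.14), the adaptor STAP1 (-0.46 ± 0.14), CMSS1 (-0.57 ± 0.17), COMMD8 (-0.34 ± 0.11) and the translation regulator CPEB2 (-0.60 ± 0.19).

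Genes of purine ring assembly and uric acid formation were higher at 9 g/kg in 17 of 26 tested members, with a median difference of 0.19 against -0.03 over all tested genes. At an unadjusted p below 0.05 there were 7 higher members and 0 lower, where 1.1% of all genes were higher at that threshold. One of the 7, UPP2, acts on a pyrimidine nucleoside and not on the purine ring. It is counted in the 17, in the 7 and in the median. The list was drawn up with earlier results of these data known, so its counts are a description only. PPAT commits ring synthesis by adding the first nitrogen to phosphoribosyl pyrophosphate, and it stood at 151, 327 and 528 TPM (lowest, median, highest) at 9 g/kg, against 83.8, 175 and 359 TPM at 1.8 g/kg (0.78 ± 0.31). GART, a multifunctional enzyme of the same route, averaged 252 ± 58.8 TPM at 9 g/kg and 181 ± 52.3 TPM at 1.8 g/kg (0.50 ± 0.17, 7 of 8 libraries above the 1.8 g/kg mean). PAICS, which follows in the sequence, stood at 429, 803 and 1270.3 TPM (lowest, median, highest) at 9 g/kg, against 192, 403 and 872 TPM at 1.8 g/kg (0.90 ± 0.32). ADSL, adenylosuccinate lyase, which acts in ring assembly and again in AMP synthesis, stood at 654, 1299 and 1753 TPM (lowest, median, highest) at 9 g/kg, against 360.1, 694 and 1358 TPM at 1.8 g/kg (0.79 ± 0.27). Of the 8 libraries at 9 g/kg, 7 lay above the 1.8 g/kg mean for ADSL and 3 above its highest library. ATIC, which closes the ring, averaged 5179 ± 1961 TPM at 9 g/kg and 3616 ± 1820.3 TPM at 1.8 g/kg (0.58 ± 0.27, 6 of 8). PRPS2, which makes phosphoribosyl pyrophosphate, averaged 1148 TPM at 9 g/kg and 782 TPM at 1.8 g/kg (0.49 ± 0.22). The ranges of all these enzymes overlapped between the doses.

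The suppliers and the last oxidation step were less uniform. GLUL, glutamine synthetase, differed by 0.45 ± 0.25 and SHMT1, which moves one-carbon units from serine, by 0.34 ± 0.17. XDH, xanthine dehydrogenase, which forms uric acid, averaged 115 ± 50.4 TPM at 9 g/kg and 113 ± 69 TPM at 1.8 g/kg (0.22 ± 0.44), and 3 of 8 libraries at 9 g/kg exceeded the 1.8 g/kg mean. Its difference turned to -0.12 without 1.8 g/kg replicate 5. The purine median stayed between 0.13 and 0.27 when each library was left out, and was 0.21 after rescaling.

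**Figure D2:**
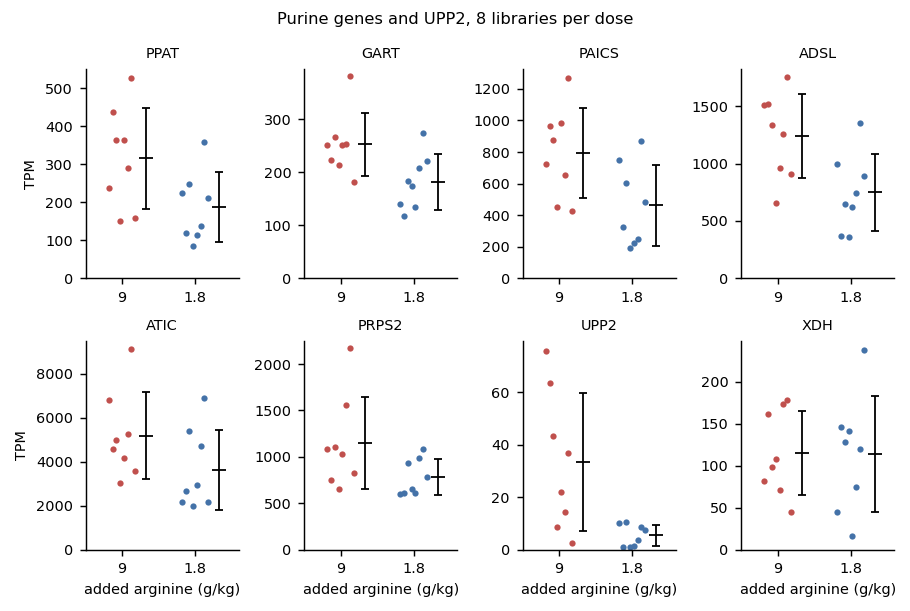
TPM of 7 purine and uric acid genes and of UPP2, a pyrimidine nucleoside enzyme, in each library at 9 g/kg (left, red) and 1.8 g/kg (right, blue); the black mark is the mean with its SD. PPAT, GART, PAICS, ADSL, ATIC and UPP2 have higher means at 9 g/kg with overlapping libraries, and XDH has similar ones (bars that reach below 0 are clipped).

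Among genes that handle arginine itself differences were mostly small. In the list of arginine, ornithine, polyamine and creatine metabolism 10 of 33 tested members had higher values and 23 lower. The median was -0.09 (-0.14 without 9 g/kg replicate 4 and -0.02 without 1.8 g/kg replicate 4, the ends of the range with each library left out), and 1 member was higher at an unadjusted p below 0.05, where 1.1% of all genes were. That gene was SLC25A15, a mitochondrial ornithine carrier, which stood at 0.65, 1.61 and 3.13 TPM (lowest, median, highest) at 9 g/kg, against 0.59, 0.865 and 1.03 TPM at 1.8 g/kg (0.50 ± 0.17). It was above the 1.8 g/kg mean in 7 of 8 libraries, at a level near 1 TPM. OAT, the mitochondrial ornithine aminotransferase, averaged 96.1 ± 47.5 TPM at 9 g/kg and 61.4 ± 32.9 TPM at 1.8 g/kg (0.65 ± 0.34). AGMAT, agmatinase, which turns agmatine into putrescine, stood at 99.9, 138 and 211 TPM (lowest, median, highest) at 9 g/kg, against 69.7, 119 and 204 TPM at 1.8 g/kg (0.23 ± 0.18, 5 of 8 libraries above the 1.8 g/kg mean). ODC, ornithine decarboxylase, the first enzyme of the polyamine route, averaged 10.8 ± 5.34 TPM at 9 g/kg and 10.3 ± 3.62 TPM at 1.8 g/kg. ASS1 and ASL, the urea cycle enzymes that make arginine from citrulline, averaged 19.1 ± 10.8 and 1.87 ± 1.08 TPM at 9 g/kg, against 23.6 ± 25.1 and 2.11 ± 1.38 TPM at 1.8 g/kg. GATM and GAMT, the creatine synthesis pair, differed by -0.35 ± 0.46 and -0.22 ± 0.23. ALDH18A1, which starts ornithine and proline synthesis from glutamate, differed by -0.46 ± 0.34. The differences of ODC (-0.00 ± 0.27), ASS1 (-0.06 ± 0.44) and ASL (-0.11 ± 0.27) changed sign under other settings.

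Genes of the ATF4 amino acid response, the programme that follows amino acid shortage, went both ways, 11 higher and 9 lower of 20, with a median of 0.03. The 3 members with an unadjusted p below 0.05 were higher, where 1.1% of all genes were, and make or convert amino acids. GPT2, mitochondrial alanine aminotransferase, stood at 21.9, 66.6 and 273 TPM (lowest, median, highest) at 9 g/kg, against 8.33, 24.7 and 98 TPM at 1.8 g/kg (1.56 ± 0.52). PSPH, the last enzyme of serine synthesis, averaged 7013 ± 2951 TPM at 9 g/kg and 4516 ± 1664 TPM at 1.8 g/kg (0.63 ± 0.28), and CTH, cystathionine lyase, 195 ± 29.7 TPM at 9 g/kg and 157 ± 49.5 TPM at 1.8 g/kg (0.36 ± 0.17). Each was above the 1.8 g/kg mean in 7 of 8 libraries at 9 g/kg. ASNS, asparagine synthetase, averaged 16.7 ± 12.6 TPM at 9 g/kg and 28 ± 18.2 TPM at 1.8 g/kg (-0.68 ± 0.42), and was below the mean in 7 of 8.

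G6PC and PCK1, which act in glucose production, had lower values at 9 g/kg, and the glycogen-targeting subunits PPP1R3B and PPP1R3C higher ones. G6PC stood at 123, 290.4 and 794 TPM (lowest, median, highest) at 9 g/kg, against 291, 704 and 1113 TPM at 1.8 g/kg. Its means were 336 ± 233 TPM at 9 g/kg and 711 ± 285 TPM at 1.8 g/kg (-1.25 ± 0.37, 95% interval -2.04 to -0.47). Of the 8 libraries at 9 g/kg, 7 lay below the 1.8 g/kg mean and 4 below its lowest library. PCK1, the cytosolic carboxykinase of gluconeogenesis, stood at 0.47, 9.35 and 127 TPM (lowest, median, highest) at 9 g/kg, against 1.64, 56.3 and 1352 TPM at 1.8 g/kg (-2.18 ± 1.18). All 8 libraries at 9 g/kg were below the 1.8 g/kg mean, yet the groups overlapped widely and the unadjusted p was above 0.05. PPP1R3B and PPP1R3C, which hold the phosphatase that activates glycogen synthase at glycogen, averaged 29.6 and 50.3 TPM at 9 g/kg, against 20.6 and 27 TPM at 1.8 g/kg (0.49 ± 0.20 and 1.09 ± 0.57). In the whole glucose and glycogen list 15 of 26 members were higher and 11 lower, with a median of 0.07. At an unadjusted p below 0.05 there was 1 member in each direction, PPP1R3B and G6PC, where 1.1% of all genes were higher and 2.04% lower.

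Of the genes tied to insulin and growth hormone, IGFBP1 and IRS2 had lower values at 9 g/kg and SOCS2 higher ones. IGFBP1, an IGF binding protein that insulin represses, stood at 20.6, 109 and 860.2 TPM (lowest, median, highest) at 9 g/kg, against 109, 379 and 771 TPM at 1.8 g/kg (-1.67 ± 0.68). It was below the 1.8 g/kg mean in 7 of 8 libraries at 9 g/kg, and the remaining library held the highest value of all 16. IRS2, an insulin receptor substrate, stood at 2.03, 6.03 and 18.8 TPM (lowest, median, highest) at 9 g/kg, against 2.89, 15.5 and 21.3 TPM at 1.8 g/kg (-1.04 ± 0.41). SOCS2, a suppressor of growth hormone signalling, averaged 37.9 ± 16.5 TPM at 9 g/kg and 21.6 ± 11.7 TPM at 1.8 g/kg (0.84 ± 0.30, 7 of 8 above the mean). IGF1, the growth factor downstream of growth hormone, averaged 23.6 ± 9.09 TPM at 9 g/kg and 21.8 ± 6.08 TPM at 1.8 g/kg (0.02 ± 0.27). Over the growth hormone, insulin and thyroid list 14 of 24 members were higher and 10 lower, with a median of 0.02.

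Genes of fatty acid synthesis had lower values in 15 of 21 members, with a median of -0.21, and 2 were lower at an unadjusted p below 0.05 (2.04% of all genes were). The median was -0.08 without 9 g/kg replicate 7 or 1.8 g/kg replicate 1 and -0.12 without 9 g/kg replicate 1 or 5, and after rescaling 8 of 21 members were higher. ME1, malic enzyme, which supplies NADPH for fatty acid synthesis, stood at 5.18, 12.2 and 19.7 TPM (lowest, median, highest) at 9 g/kg, against 6.12, 38.1 and 86.1 TPM at 1.8 g/kg (-1.34 ± 0.46). All 8 libraries at 9 g/kg were below the 1.8 g/kg mean, and the 1.8 g/kg libraries were spread widely, 3 of them within the 9 g/kg range. ELOVL2, an elongase of polyunsaturated fatty acids, averaged 60.3 ± 37.5 TPM at 9 g/kg and 96.6 ± 39.1 TPM at 1.8 g/kg (-0.91 ± 0.43). The central enzymes did not show the same size of difference. FASN, fatty acid synthase, averaged 56 ± 21.6 TPM at 9 g/kg and 57 ± 31.3 TPM at 1.8 g/kg (0.10 ± 0.33). ACACA, acetyl-CoA carboxylase, differed by -0.07 ± 0.35, the elongase ELOVL6 by -0.38 ± 0.27 and the desaturase SCD by -0.84 ± 0.51, at medians of 1.14 TPM at 9 g/kg and 3.29 TPM at 1.8 g/kg.

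Genes of triglyceride storage and lipoprotein export were lower in 23 of 36 members, with a median of -0.14, against 6530 of 11299 over all tested genes with a median of -0.03. At an unadjusted p below 0.05, 0 were higher and 5 lower, where 1.1% of all genes were higher and 2.04% lower. MTTP, which loads lipid onto apolipoprotein B, averaged 56 ± 5.14 TPM at 9 g/kg and 68.2 ± 10.5 TPM at 1.8 g/kg (-0.27 ± 0.11, 8 of 8 libraries below the mean). APOC3, an apolipoprotein that slows triglyceride clearance, averaged 8751 ± 2019 TPM at 9 g/kg and 11018 ± 1828 TPM at 1.8 g/kg (-0.35 ± 0.14, 8 of 8). Both differences were small. PNPLA3, a lipid droplet acylhydrolase, averaged 22.2 ± 5.35 TPM at 9 g/kg and 48.5 ± 42.7 TPM at 1.8 g/kg (-0.80 ± 0.34), where 1 library at 1.8 g/kg reached 149 TPM and 2 libraries at 9 g/kg were below the lowest at 1.8 g/kg. The droplet coat protein PLIN1 differed by -1.04 ± 0.48, and FABP1, a liver fatty acid binding protein, by -0.84 ± 0.38. Fatty acid oxidation was near balance, 11 higher and 16 lower of 27, with ECHS1, a short-chain hydratase (0.28 ± 0.12), higher and ACADS, a short-chain dehydrogenase (-0.24 ± 0.11), lower at an unadjusted p below 0.05. CPT1A, the gate of mitochondrial fatty acid entry, differed by -0.39 ± 0.61. Its medians were 116 TPM at 9 g/kg and 102 TPM at 1.8 g/kg, so the median and the mean of the log values differ in direction.

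Cholesterol synthesis genes leaned the same way in 20 of 21 tested members, with a median of -0.36, while none had an unadjusted p below 0.05. LSS, lanosterol synthase, averaged 38.5 ± 23.7 TPM at 9 g/kg and 60.0 ± 28.1 TPM at 1.8 g/kg (-0.68 ± 0.36). SQLE, squalene epoxidase, averaged 22.8 ± 14.7 TPM at 9 g/kg and 43 ± 37.5 TPM at 1.8 g/kg (-0.68 ± 0.54). The SD of SQLE at 1.8 g/kg was large beside its mean, and the groups overlapped. INSIG2, which holds back the sterol-sensing machinery, was the exception at 0.49 ± 0.26. The list median was -0.54 without 1.8 g/kg replicate 3, -0.21 without 1.8 g/kg replicate 8 and -0.24 without 9 g/kg replicate 7.

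The bile acid enzymes CYP7A1 and CYP8B1 had lower values at 9 g/kg, and the sterol exporter genes ABCG5 and ABCG8 higher ones. CYP7A1, the rate-limiting enzyme of bile acid synthesis, stood at 4.01, 42 and 80.2 TPM (lowest, median, highest) at 9 g/kg, against 14.6, 120.1 and 295 TPM at 1.8 g/kg (-1.66 ± 0.72). CYP8B1, the 12-alpha hydroxylase that sets the type of bile acid, stood at 20.9, 89 and 218 TPM (lowest, median, highest) at 9 g/kg, against 74, 162 and 683 TPM at 1.8 g/kg (-1.07 ± 0.48). In both, 3 libraries at 9 g/kg were below the lowest at 1.8 g/kg and the other 5 overlapped its range, and 1 library at 1.8 g/kg lifted the CYP8B1 mean to 227 TPM. NR0B1, an orphan nuclear receptor, belongs to the nuclear receptor list and not to the bile acid and sterol list. It stood at 12.4, 104 and 246 TPM (lowest, median, highest) at 9 g/kg, against 5.9, 40.9 and 101 TPM at 1.8 g/kg (1.24 ± 0.53). ABCG5, one subunit of the sterol exporter, averaged 13.6 ± 6.57 TPM at 9 g/kg and 8.68 ± 2.41 TPM at 1.8 g/kg (0.55 ± 0.22), and its partner ABCG8 6.3 ± 3.5 TPM at 9 g/kg and 3.66 ± 1.87 TPM at 1.8 g/kg (0.59 ± 0.30). ABCC2, a canalicular exporter of conjugates, differed by 0.33 ± 0.15. Over the bile acid and sterol list 8 of 15 members were higher and 7 lower. At an unadjusted p below 0.05 there were 2 in each direction, where 1.1% of all genes were higher and 2.04% lower.

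**Figure D3:**
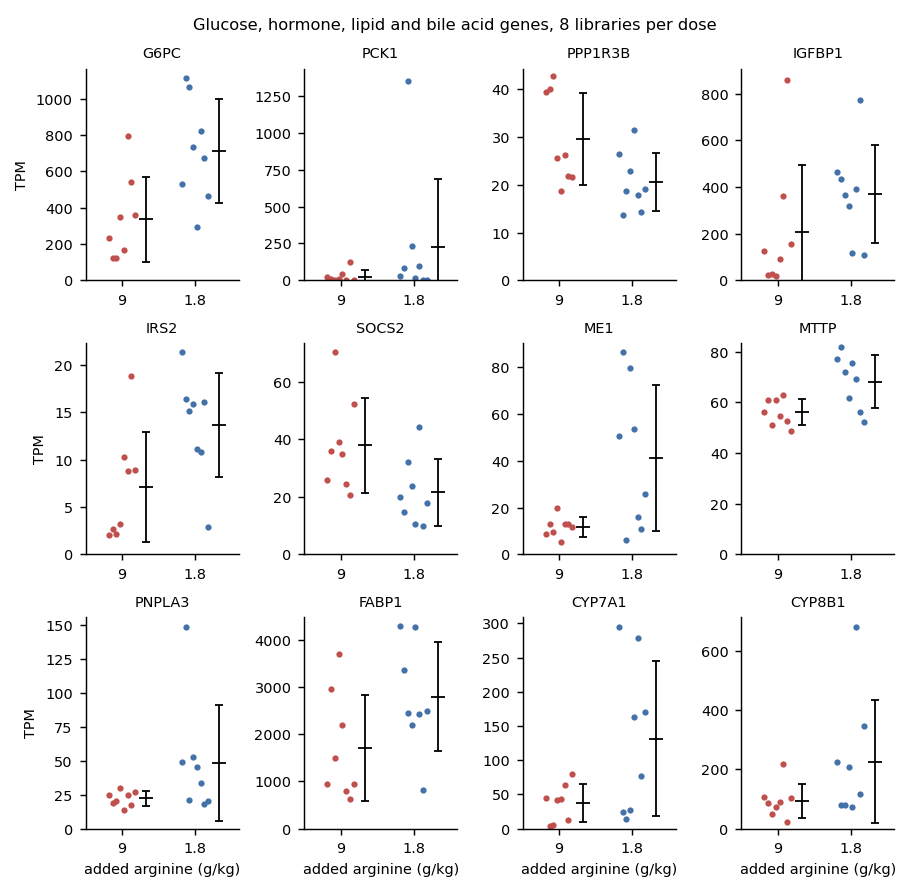
TPM of 12 genes of glucose, hormone, lipid and bile acid metabolism in each library at 9 g/kg (left, red) and 1.8 g/kg (right, blue); the black mark is the mean with its SD, clipped at 0. G6PC, ME1, CYP7A1 and CYP8B1 sit lower at 9 g/kg on average, SOCS2 and PPP1R3B higher, and the libraries overlap in all 12 genes.

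Immediate early genes had higher values in 15 of 18 members, with a median of 0.37, and 2 were higher and 1 lower at an unadjusted p below 0.05 (1.1% and 2.04% of all genes were). EGR1, a transcription factor induced within minutes of a stimulus, stood at 11.7, 24.8 and 82 TPM (lowest, median, highest) at 9 g/kg, against 1.09, 6.96 and 45.9 TPM at 1.8 g/kg (1.47 ± 0.57), and IER5 averaged 8.04 TPM at 9 g/kg and 6.04 TPM at 1.8 g/kg (0.34 ± 0.14). FOS differed by 0.88 ± 0.46. GADD45B went the other way, with 62.9 ± 52.1 TPM at 9 g/kg and 124 ± 72.3 TPM at 1.8 g/kg (-1.08 ± 0.37). On the acute phase and inflammation list NFKBIA, the inhibitor of NF-kappa-B, averaged 90.1 ± 85.1 TPM at 9 g/kg and 148 ± 68.8 TPM at 1.8 g/kg (-1.12 ± 0.52). Among clock genes PER3, a period gene, averaged 3.71 ± 1.49 TPM at 9 g/kg and 2 ± 0.883 TPM at 1.8 g/kg (0.63 ± 0.25), and 9 of 20 members were higher and 11 lower.

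Interferon response genes, which act against viruses, were lower in 27 of 34 members (6530 of 11299 over all tested genes), with a median of -0.15, and 2 were lower at an unadjusted p below 0.05, where 2.04% of all genes were. TLR3, the receptor for double-stranded RNA, stood at 1.55, 2.46 and 3.36 TPM (lowest, median, highest) at 9 g/kg, against 2.49, 3.81 and 7.96 TPM at 1.8 g/kg (-0.53 ± 0.17), and EPSTI1 averaged 6.94 ± 3.3 TPM at 9 g/kg and 12 ± 5.41 TPM at 1.8 g/kg (-0.70 ± 0.30). The interferon median was 0.02 without 1.8 g/kg replicate 2, which held the highest TLR3 value, -0.06 without 9 g/kg replicate 7, -0.09 without 9 g/kg replicate 1 or 1.8 g/kg replicate 4, and -0.23 without 1.8 g/kg replicate 3. Among antioxidant and xenobiotic genes the glutathione transferase GSTT1 differed by 0.47 ± 0.20 and the mitochondrial superoxide dismutase SOD2 by -0.27 ± 0.12. The plasmin inhibitor SERPINF2 averaged 418 ± 41.1 TPM at 9 g/kg and 341 ± 59.3 TPM at 1.8 g/kg (0.31 ± 0.11, 8 of 8 libraries above the mean), and the interleukin-6 receptor IL6R differed by 0.34 ± 0.13. The endoplasmic reticulum chaperone HSPA5 averaged 713 ± 329 TPM at 9 g/kg and 488 ± 569.5 TPM at 1.8 g/kg (0.92 ± 0.45), with 5 of 8 libraries above the 1.8 g/kg mean and the highest value of all 16, 1857 TPM, at 1.8 g/kg.

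Of the machinery lists, cell cycle genes were lower in 27 of 28 members, with a median of -0.34 and 0 members at an unadjusted p below 0.05. CDK1, the mitotic kinase, stood at 2.9, 6.17 and 14.8 TPM (lowest, median, highest) at 9 g/kg, against 3.53, 11.1 and 77.9 TPM at 1.8 g/kg (-0.81 ± 0.48). MKI67, a proliferation marker, stood at 0.28, 1.04 and 1.91 TPM (lowest, median, highest) at 9 g/kg, against 0.58, 1.41 and 11.9 TPM at 1.8 g/kg (-0.53 ± 0.34). One library, 1.8 g/kg replicate 4, held the highest value of both, and without it the median of the list was -0.10. Cytosolic ribosomal proteins were lower in 64 of 68 members with a median of -0.07 (-0.11 without 9 g/kg replicate 2), and after rescaling 11 of 68 were higher with a median of -0.04. RPS12 averaged 1827 TPM at 9 g/kg and 2155 TPM at 1.8 g/kg (-0.24 ± 0.10), and RPL36 differed by -0.22 ± 0.09. Nuclear OXPHOS subunits were lower in 50 of 62 with a median of -0.06 (-0.13 without 1.8 g/kg replicate 8 and -0.04 without 1.8 g/kg replicate 7), while the 13 mitochondrially encoded members had a median of 0.02. Members higher at 9 g/kg numbered 13 of 21 for the unfolded protein response, 15 of 21 for cytosolic heat shock, 21 of 32 for nuclear receptors, 15 of 28 for the acute phase, 14 of 31 for the proteasome and 11 of 28 for coagulation. The medians of the proteasome, coagulation and fatty acid oxidation lists were below 0 and turned to 0.02, 0.01 and 0.00 after rescaling.

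Hepatocyte markers were higher in 16 and lower in 15 of 31 members, with 0 at an unadjusted p below 0.05, and endothelial markers were higher in 18 of 29 with a median of 0.07, which was -0.01 with library weights. Members higher at 9 g/kg numbered 11 of 18 for T and NK cells, 5 of 7 for B and plasma cells, 6 of 14 for erythrocytes, 15 of 26 for stellate cells and fibroblasts and 9 of 14 for cholangiocytes. For B and plasma cells the median summed level was 129 TPM at 9 g/kg and 157 TPM at 1.8 g/kg. For erythrocytes it was 1508 TPM at 9 g/kg and 1158 TPM at 1.8 g/kg. Both sums went against the counts, while those of the other lists in that count went with them. Macrophage markers were higher in 17 of 21 with a median of 0.09 (-0.06 to 0.39 with each library left out), and their summed level ran from 1827 to 4046 TPM at 9 g/kg and from 1689 to 5497 TPM at 1.8 g/kg. HPGDS, a prostaglandin D synthase on that list, averaged 1033 TPM at 9 g/kg and 814 TPM at 1.8 g/kg (0.35 ± 0.13). This 1 gene is a large part of the macrophage sum, whose median was 2773 TPM at 9 g/kg and 2418 TPM at 1.8 g/kg. Heterophil markers were higher in 14 of 15, but the median turned to -0.37 without 9 g/kg replicate 4, where their summed level was 8813 TPM, against 108 to 839 TPM over the 1.8 g/kg libraries. The B cell coactivator POU2AF1 averaged 1.62 TPM at 9 g/kg and 0.934 TPM at 1.8 g/kg (0.40 ± 0.15), and the epithelial keratin KRT18 152 TPM at 9 g/kg and 102 TPM at 1.8 g/kg (0.53 ± 0.18). The part of cell composition in the differences above was not tested.

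**Figure D4:**
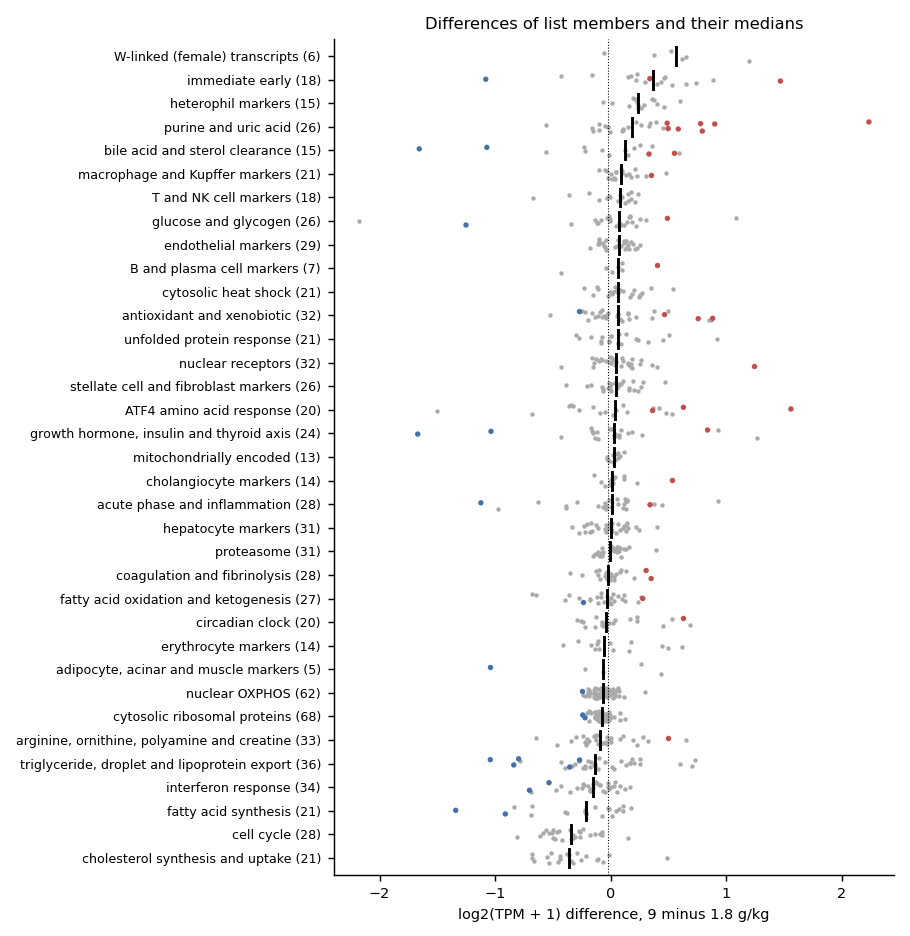
Differences of the tested members of each gene list on the log2(TPM + 1) scale, 9 minus 1.8 g/kg; grey points are members at an unadjusted p of 0.05 or more, red and blue points higher and lower ones below it, black bars list medians and the dotted line the median of all 11299 genes. The medians of the purine and immediate early lists lie to the right of the line and those of the cholesterol and cell cycle lists to the left, with members on both sides; the cell cycle median is -0.10 without 1.8 g/kg replicate 4.

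The other doses give a setting for these levels, without a further test, since the 9 and 1.8 g/kg libraries are those already compared. At 0, 1.8, 9 and 18 g/kg the means of SLC35F3 were 0.72, 0.583, 1.58 and 0.491 TPM, and those of UPP2 were 10.6, 5.38, 33.4 and 4.83 TPM. Both had their highest mean at 9 g/kg, with 18 g/kg below 9 g/kg. ADSL averaged 711, 749, 1239 and 719 TPM and ATIC 3559, 3616, 5179 and 3088 TPM in the same order. G6PC averaged 709.7, 711, 336 and 662 TPM, and ME1 30.2, 41, 11.7 and 22.9 TPM. In these 6 picked genes the 9 g/kg mean was the extreme one, and the means did not follow the order of the doses. Genes chosen for a difference between 9 and 1.8 g/kg tend to have an extreme mean at either dose by that choice. Most of the other named leading genes also had their highest or lowest mean at 9 g/kg, among them TDH, GSL and KLB. F13B and ACKR4 did not. F13B, at 67.2, 49.7, 63.8 and 61.2 TPM, had its lowest mean at 1.8 g/kg, with 9 g/kg close to the others. ACKR4, at 5.12, 4.30, 7.87 and 9.00 TPM, was highest at 18 g/kg. ABCB1LA averaged 33.7, 59.8, 32.6 and 59.9 TPM, lowest at 9 g/kg but close to 0 g/kg.

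**Figure D5:**
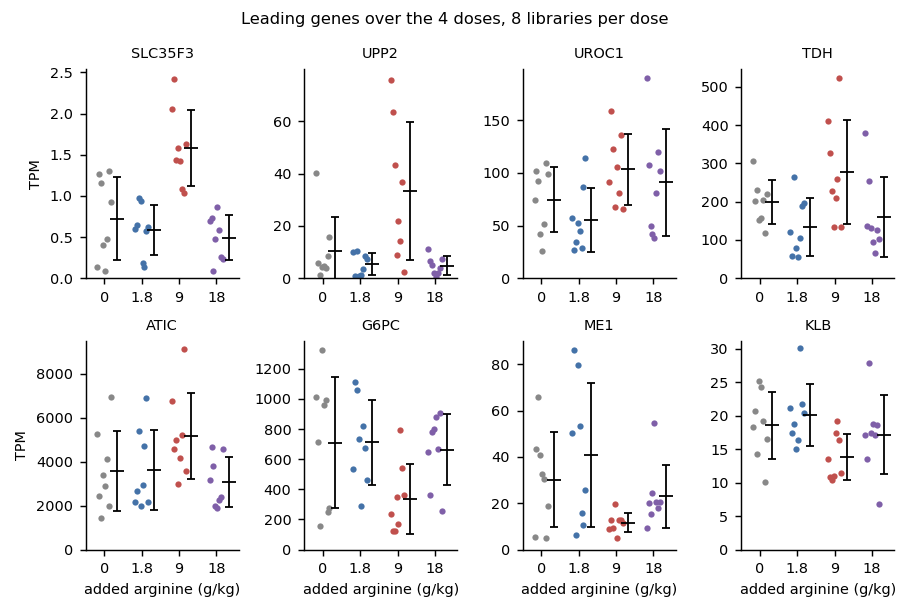
TPM in every library at 0, 1.8, 9 and 18 g/kg of added arginine, for 8 genes picked from those described above. Each has an unadjusted p below 0.05 at 9 against 1.8 g/kg. The black mark is the mean with its SD, clipped at 0. The means of SLC35F3, UPP2, UROC1, TDH and ATIC are highest and those of G6PC, ME1 and KLB lowest at 9 g/kg.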

How the data were processed

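Liver RNA was poly(A)-selected and sequenced, per the labels' protocols; fastp, HISAT2, StringTie and RSEM are named in the submitters' processing notes, and the genome build is not given in the sources used here. The authors deposited 1 table of TPM with 25619 rows. Library sums ran from 998707 to 999281. Counts were not used here, so depth and counting error are unknown. Symbols were looked up in the RefSeq gene table (assembly GRCg7b): 25368 IDs matched, 13 more by locus tag, and 238 did not.

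Groups are the labelled doses. Genes whose mean over the 16 libraries reached 1 TPM were fitted on log2(TPM + 1) with limma 3.58.1 in R 4.3.3 (eBayes, trend=TRUE). P-values are 2-sided and adjusted by the Benjamini-Hochberg method over all 11299 genes. The share of mitochondrial TPM was compared by an exact permutation test. The procedure was tested on simulated data in which each gene varied independently, so effects shared by the genes of a library were not covered. The members, the gene lists and the rules were chosen with earlier results of these data known. Genes named are the 15 higher and 15 lower ones with the smallest unadjusted p (identifiers without a name are only counted), a panel of arginine genes, up to 3 members of each list with the smallest p, and HINTW; a few others are named for the role a paragraph is about. Lists are described by counts and medians without a test. Alternatives changed the pseudocount, the filter, the scaling, the variance model, the libraries used, the replicate block and a HINTW covariate, or left out each library.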

Additional observations from a re-analysis of the deposited data

Results flagged for a closer look

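Among the named genes and the mitochondrial share, 17 of 206 sets of 8 libraries held a single library far from the other 7 on the log2(TPM + 1) scale; chance alone flags about 1 set in 20. At 9 g/kg, CPT1A was 12.7 TPM in replicate 8, where the other 7 ran from 80.5 to 229.5 TPM, and PER3 was 0.91 TPM in the same library, against 2.68 to 5.25 TPM. IGF1 was 6.16 TPM in replicate 1 (others 20.3 to 38.4 TPM), and ABCC2 was 52.9 TPM there (28.4 to 35.5 TPM). ALDH18A1 was 52.6 TPM in replicate 5 (10.9 to 22.8 TPM), ABCG5 was 29.4 TPM in replicate 2 (9.2 to 14.9 TPM) and CCDC134 was 9.01 TPM in replicate 7 (11.9 to 15.1 TPM).

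At 1.8 g/kg, replicate 4 was high for the proliferation marker MKI67 with 11.9 TPM (others 0.58 to 3.16 TPM), for STAP1 with 2.89 TPM (0.82 to 1.48 TPM) and for ACADS with 54.8 TPM (41.2 to 47.0 TPM). Replicate 8 was low for IRS2 with 2.89 TPM (10.8 to 21.3 TPM) and for ABCG5 with 4.11 TPM (7.5 to 11.8 TPM). ACACA was 7.33 TPM in replicate 3 (24.5 to 67.4 TPM), FABP1 827 TPM in replicate 7 (2208 to 4305 TPM) and NR0B1 5.9 TPM in replicate 6 (27.6 to 101 TPM). APOC3 was 15271 TPM in replicate 1 (9561 to 11437 TPM) and TLR3 7.96 TPM in replicate 2 (2.49 to 4.4 TPM).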

How the results depend on the processing

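No gene was called under any of the alternatives run (lowest adjusted p 0.0823, without 9 g/kg replicate 1). Of 102 named genes, 94 kept the sign of their difference in every setting. The number of genes at an unadjusted p below 0.05 was 636 (242 higher, 394 lower) with no filter on low values. Higher genes numbered 198 after median-ratio rescaling and 229 with robust variances and library weights, and lower genes 151 at a mean of at least 5 TPM. With each library left out in turn the total ran from 287 to 477, higher genes from 101 to 199 (199 without 9 g/kg replicate 8) and lower genes from 147 (without 1.8 g/kg replicate 4) to 354 (without 1.8 g/kg replicate 7). Fewer or more genes and libraries enter these fits by construction; for the scaling and weights the cause was not tested. ODC turned to 0.0241 after median-ratio rescaling, 0.171 with library weights and 0.0079 with the HINTW covariate, ASS1 to 0.217 and 0.0188 with the weights and the covariate, and ASL to 0.0321 with the weights. With each library left out, differences ran from -0.136 to 0.111 for ODC, -0.26 to 0.26 for ASS1, -0.204 to 0.0448 for ASL, -0.0908 to 0.261 for IGF1, -0.0771 to 0.255 for FASN, -0.366 to 0.0683 for ACACA, -0.124 to 0.42 for XDH and -0.746 to 0.0044 for CPT1A. The mitochondrial share differed by -0.265 (without 9 g/kg replicate 8) to 0.827 percentage points. Same-numbered libraries of the doses correlated at -0.308 to 0.32 in their deviations from the group means. Of these pairs, 2 of 8 were above 0.1, and 1 library matched its own number best. Whether the numbers mark a shared block was not tested. A replicate block gave 491 genes at an unadjusted p below 0.05, against 354 without it, and 0 called. For the mitochondrial share p = 0.742 in an exact paired permutation test. Depth is unknown, and 8 libraries per dose limit the precision.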

Other observations

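Of all 11299 tested genes, 33 combined a difference of at least 1 (log2(TPM + 1) scale) with an unadjusted p below 0.05. The size alone was reached by 71 genes. Of the 33, 16 were higher and 17 lower at 9 g/kg, and 14 carried only locus identifiers. Several were described above, among them UPP2, TDH, GPT2, G6PC, ME1 and CYP7A1. The 4 genes named next were chosen for their size after their values were seen. HKDC1, a hexokinase-domain protein, stood at 0.25, 0.81 and 1.13 TPM (lowest, median, highest) at 9 g/kg, against 0.37, 1.68 and 105 TPM at 1.8 g/kg (-1.89 ± 0.78). Its 9 g/kg libraries were at most 1.13 TPM, while some at 1.8 g/kg reached far higher values. MT3, a metal-binding metallothionein, averaged 401 ± 248 TPM at 9 g/kg and 151 ± 92.8 TPM at 1.8 g/kg (1.23 ± 0.48, 6 of 8 libraries above the 1.8 g/kg mean). FST, follistatin, the binding protein of activins, averaged 42.7 ± 32.3 TPM at 9 g/kg and 74.3 ± 32.3 TPM at 1.8 g/kg (-1.05 ± 0.47). IL22RA2, a soluble receptor that binds interleukin-22, averaged 4.62 ± 5.79 TPM at 9 g/kg and 11.9 ± 9.56 TPM at 1.8 g/kg (-1.39 ± 0.58). None passed the adjusted test.

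The largest differences of all belonged to 5 loci of chromosome 16 that the reference annotation calls ribosomal RNA, in libraries made from poly(A)-selected RNA. Their differences ran from 3.99 to 4.92. Some of the 5 were 0 in every library at 1.8 g/kg and above 0 in 4 to 6 of 8 at 9 g/kg, so they passed the filter only through 9 g/kg. The others were above 0 in 2 libraries at 1.8 g/kg and in 6 at 9 g/kg. Such loci are near-identical copies, so their single values are uncertain. The 52 tested loci of this kind on chromosome 16 had a median difference of 0.03, with 34 higher. Among the 52, 5 had an unadjusted p below 0.05, where 3.13% of all genes did. They are the same 5 loci picked above for their size, so this count adds no further result. Summed over the 52 loci, the level ran from 5727 to 10186 TPM at 9 g/kg and from 2743 to 11311 TPM at 1.8 g/kg. At 1.8 g/kg replicates 1, 3, 5 and 7 summed to 3388, 3480, 3295 and 2743 TPM, and replicates 2, 4, 6 and 8 to 6567, 11058, 11311 and 8022 TPM, so the odd-numbered libraries were all below the even-numbered ones, a split that the 9 g/kg libraries did not show. Whether a batch lies behind these numbers was not tested.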
